A study of Citrus unshiu with 6 samples.

Results

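Roughing disorder (RD) is a peel defect of Satsuma mandarin (Citrus unshiu) in which the fruit surface turns coarse and thick. The comparison described here is that of RD peel with control (CK) peel at 80 days after full bloom (DAFB), and its members were all genes whose expression reached an FPKM of 1 in the higher of both libraries. FPKM is a transcript level in which the mapped fragments of a gene are divided by its length and by the size of the library. Of the 23099 genes listed, 17402 (75.3%) met this limit, 16365 of them in both libraries, 636 in RD80 only and 401 in CK80 only. RD80 was peel of RD fruit from trees of the cultivar "Yamashitabeni wase", grafted on trifoliate orange and stripped of most of their fruit at fruit set so that a few upward fruits remained. CK80 was peel from trees of the same cultivar and rootstock that kept their fruit. Each was 1 library made from 1 pool of peel samples, as were RD30, CK30, RD170 and CK170, taken at 30 and 170 DAFB. Tree, fruit load and possibly fruit position cannot be told apart from the disorder, and with 1 library a condition no difference has a replicate check. No p or SD is therefore given, and every difference is one between 2 pools.

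Citrus peel consists of the outer flavedo, with cuticle, chloroplasts and oil glands, and the inner white albedo. After an early phase of cell division the peel grows by enlargement of its cells, in which water uptake through aquaporins, loosening of the wall and deposition of new cuticle go together, and gibberellin, auxin and jasmonate are among the hormones that govern growth and defence. Names are those of the closest protein listed for each gene beside its FPKM, and the roles given below are those known from other plants, chiefly Arabidopsis thaliana and tomato. Of the members, 7849 (45.1%) had a named match. The peel label was checked against markers. Of 7 chlorophyll a-b binding proteins, the summed FPKM was 11943 in RD80 and 12876 in CK80. Lipid-transfer proteins summed to 1045 in RD80 and 744 in CK80, and terpene synthases of the oil glands to 1749 in RD80 and 1926 in CK80. The 3-ketoacyl-CoA synthases, taken as markers of the peel surface, summed to 50.4 in RD80 and 47.6 in CK80. Of the seed storage proteins and oleosins, only oleosin 1 (orange1.1t03751) reached the limit, at 13.6 in RD80 and 11.5 in CK80. Late embryogenesis abundant proteins, also taken as markers of seed and juice sac, had 3 members, of which 1 was at least 2-fold lower. They summed to 776 in RD80 and 696 in CK80, led by Lea5 (Cs9g04210) with 772 in RD80 and 691 in CK80. The list of seed and juice sac genes matched by name was less uniform, with 5 (26.3%) of 19 at least 2-fold higher in RD80 and 5 (26.3%) lower, beside 5.2% and 4.86% of all genes, and summed to 2721 in RD80 and 1369 in CK80. Its 5 higher members were all homologs of a 21 kDa seed protein, which are proteinase inhibitors and are described below. Of the lower ones, 4 were basic 7S globulins. The list of 5 such globulins, drawn up after the values were seen, summed to 21.5 in RD80 and 73.8 in CK80. It was led by Cs9g06060 with 13.9 in RD80 and 45.8 in CK80. Whether tissue other than peel had a part in these values was not tested. In pooled tissue, fewer cells of a type and less RNA per cell cannot be told apart.

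The bulk of the transcriptome was alike in both pools. The log2 ratio of RD80 to CK80 lay between -0.97 and 1.0 for the central 90% of genes above 0 in both, and 13613 genes (78.2%) were within 1.5-fold. A ratio of at least 2-fold with RD80 on the higher side was found for 905 genes (5.2%), and one with RD80 on the lower side for 845 genes (4.86%). At 4-fold the counts were 193 (1.11%) higher and 187 (1.07%) lower. The median over genes at 1 or more in both libraries was 0.09 on the log2 scale, that is, 1.07-fold in favour of RD80. After this median was subtracted, 744 genes (4.28%) were higher and 980 (5.63%) lower, so that the higher genes made up 51.7% of those 2-fold apart as given and 43.2% after centring. The direction of the excess thus turned with a small shift in scale. It also turned with the level. Among the 10348 genes with an FPKM of at least 10 in the higher library, 212 (2.05%) were higher and 396 (3.83%) lower in RD80.

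**Figure D1:**
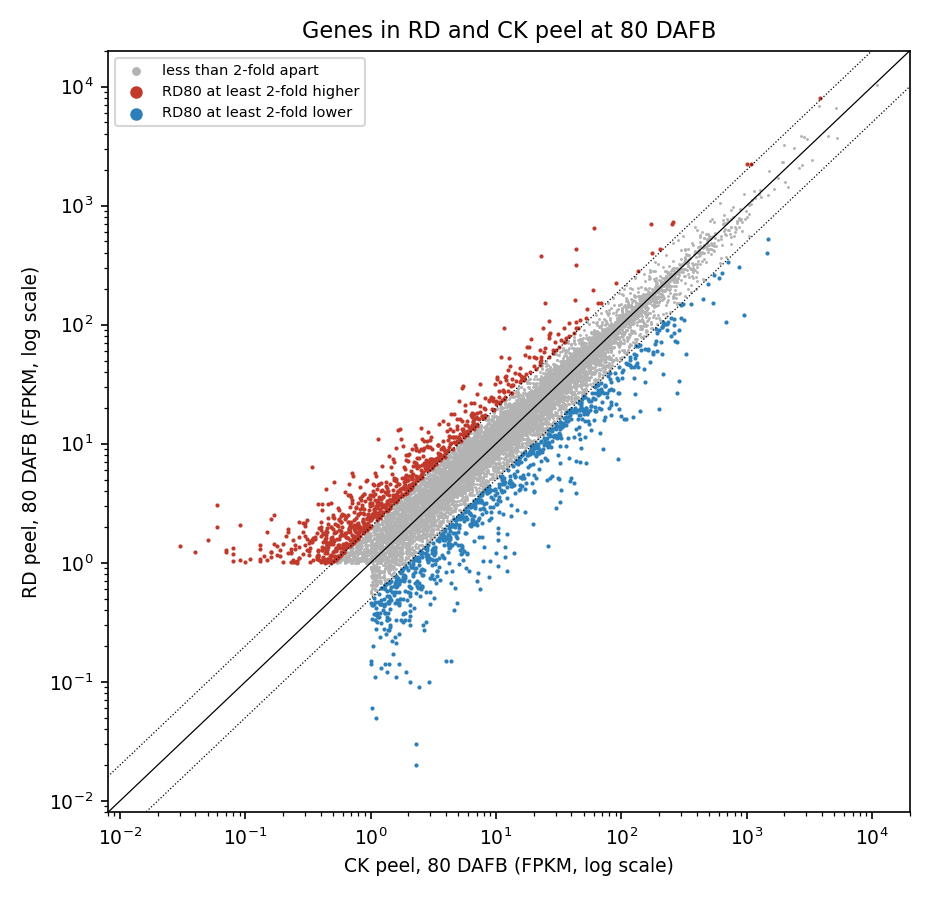
FPKM in RD80 (vertical, log scale) against CK80 (horizontal, log scale), 1 pool each, for those of the 17402 genes above 0 in both libraries. The solid line marks equal values and the dotted lines 2-fold. Red points are at least 2-fold higher in RD80 and blue points at least 2-fold lower. The 905 higher genes include 29 listed at 0 in CK80, and the 845 lower genes include 27 listed at 0 in RD80, which are not drawn.

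Weakly expressed genes supplied many of the higher calls. With a mean FPKM between 1 and 2, 227 of 1465 genes were higher and 142 lower. With a mean between 20 and 100, the counts were 76 higher and 185 lower of 5022, and with a mean of 100 or more 18 higher and 55 lower of 1024. The reads behind each FPKM were not used here, so no counting interval can be given, and ratios of genes near the limit are the least certain. At the limit itself, a pentatricopeptide repeat protein (Cs1g21250) entered with 1 in RD80 and 0.77 in CK80, while a TMV resistance protein N (Cs1g18940) at 0.99 in RD80 and 0.55 in CK80 did not. In all, 21 genes stood at exactly 1 in the higher library, and 87 lay outside between 0.95 and 0.99. A further 29 members were listed at 0 in CK80 and 27 at 0 in RD80. A 0 in such a table can be a failed estimate, so these genes are given without a ratio, though they are counted as higher or lower. The most abundant of them were a NAC protein (orange1.1t05093, FPKM 7.90 in RD80 and 0 in CK80) and a steroid 5-beta-reductase fragment (orange1.1t04841, 0 in RD80 and 7.57 in CK80).

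**Figure D2:**
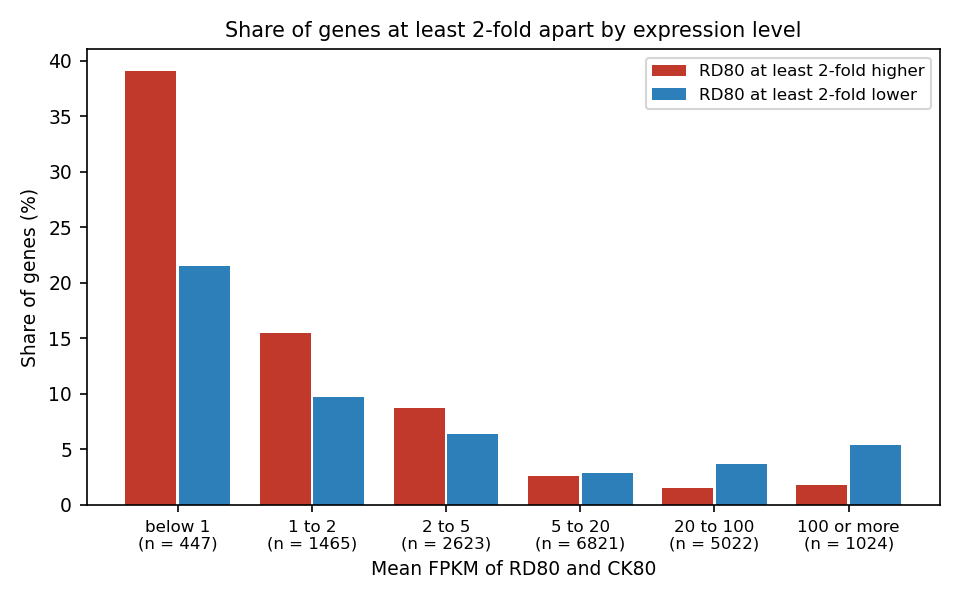
Share of genes at least 2-fold higher (red) or lower (blue) in RD80, by mean FPKM of RD80 and CK80. Higher calls exceed lower ones below a mean of 5, whereas above 20 the lower calls exceed the higher ones, with 18 higher and 55 lower genes at 100 or more.

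Some of the abundant transcripts that differed encode proteinase inhibitors, proteins that block digestive enzymes of insects and pathogens. Of 11 serine proteinase inhibitors at FPKM 1 or more, 10 were at least 2-fold higher in RD80 and none was lower, and their summed FPKM was 7088 in RD80 and 2822 in CK80. The median log2 ratio was 1.505, beside 0.10 over all genes, of which 5.2% were higher and 4.86% lower. The list was drawn up after the values were seen and is a description only. It comprises miraculins, trypsin inhibitors of the potato type I family, and "21 kDa seed protein" homologs, which are Kunitz-type inhibitors named for a cocoa protein. A pair of miraculin genes led by level. Cs5g16770 had an FPKM of 2248 in RD80 and 1077 in CK80, and Cs5g16780 had 2239 in RD80 and 1010.0 in CK80. Both stand just above 2-fold, and the log2 ratio of Cs5g16770, 1.06, falls under 1 after centring. Similar genes of this list with close gene numbers, such as this pair, may share reads, which was not examined here. The 21 kDa homolog Cs5g16920 had the largest ratio of all genes with a named match and an FPKM of at least 10, with 379.8 in RD80 and 22.8 in CK80 (16.7-fold). Its relatives Cs5g13890 (732 in RD80 and 258 in CK80) and Cs5g16850 (704 in RD80 and 253 in CK80) were 2.84- and 2.78-fold higher. Among the trypsin inhibitors, orange1.1t05560 had 695 in RD80 and 174 in CK80, and the wound-induced proteinase inhibitor 1 (Cs5g13860) had 22.7 in RD80 and 5.06 in CK80. The 10 higher members had between 10.9 and 2248 FPKM in RD80, and the 1 that was less than 2-fold apart, Cs2g16250, had 4.31 in RD80 and 2.39 in CK80. Inhibitors of cysteine proteinases, which act on another class of enzyme, were at nearly equal levels. Their 3 members, listed after the values were seen, summed to 307.4 in RD80 and 306.7 in CK80.

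Chitinases, which cut the chitin of fungal walls and insects, were divided. Of 8 members of this list, drawn up after the values were seen, 4 were at least 2-fold higher in RD80 and 3 lower. The most abundant, Cs8g01840, had 435 in RD80 and 43.3 in CK80 (10.1-fold). Endochitinase 1 (orange1.1t05124) had 153 in RD80 and 24.5 in CK80, and Cs8g01810, whose gene number is close to that of Cs8g01840, had 2.65 in RD80 and was listed at 0 in CK80. The gene next to Cs8g01840, Cs8g01850, a hypothetical protein without an assigned role, had 646 in RD80 and 61.0 in CK80, a ratio of the same size. On the other side stood the endochitinase PR4 (Cs5g21900), with 24.5 in RD80 and 76.97 in CK80. Reads of similar copies may have been divided among them, which was not examined here. The sum over the 8 chitinases was 640.3 in RD80 and 172 in CK80. Across the list of 59 pathogen response genes, which includes miraculins and chitinases, 10 (16.9%) were higher and 6 (10.2%) lower, beside 5.2% and 4.86% of all genes. Beta-1,3-glucanases, which cut callose and fungal glucan, were on both sides, for instance glucanase 12 (Cs2g20640) with 93.3 in RD80 and 44.7 in CK80, and glucanase 14 (Cs8g14950) with 11.5 in RD80 and 28.9 in CK80.

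The list of 279 disease resistance proteins, receptors of pathogen effectors, had 16 (5.73%) higher and 20 (7.17%) lower, shares near those of all genes, and at 10 FPKM or more 0 were higher and 4 lower. Single genes of some smaller families differed more. All 5 members of the salicylic acid-binding protein 2 family, esterases that release salicylic acid from its methyl ester in tobacco, were at least 2-fold higher, a list again drawn up after the values were seen. Cs1g23170 had 53.8 in RD80 and 18.4 in CK80, and Cs1g23200 had 31.8 in RD80 and 7.47 in CK80. Only these 2 reached an FPKM of 10. Cs1g23160 and Cs1g23190 were near the limit, with 1.47 and 1.15 in RD80, and were listed at 0 in CK80. The remaining member, orange1.1t05735, had 1.48 in RD80 and 0.32 in CK80. Members that met the limit in RD80 only could not have been called lower, so their direction adds nothing to the count. The lipid-transfer protein DIR1 (orange1.1t01576), which takes part in systemic acquired resistance in Arabidopsis, had 93.9 in RD80 and 11.7 in CK80, and it is also counted among the cuticle genes below. None of the 4 germin-like proteins, glycoproteins of the cell wall listed after the values were seen, was 2-fold apart. The most abundant of them, Cs5g25680, had 6891 in RD80 and 3756 in CK80 (1.83-fold). A hypothetical protein next to it, Cs5g25690, had 7964 in RD80 and 3849 in CK80 (2.07-fold), the largest difference of any gene in FPKM itself.

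**Figure D3:**
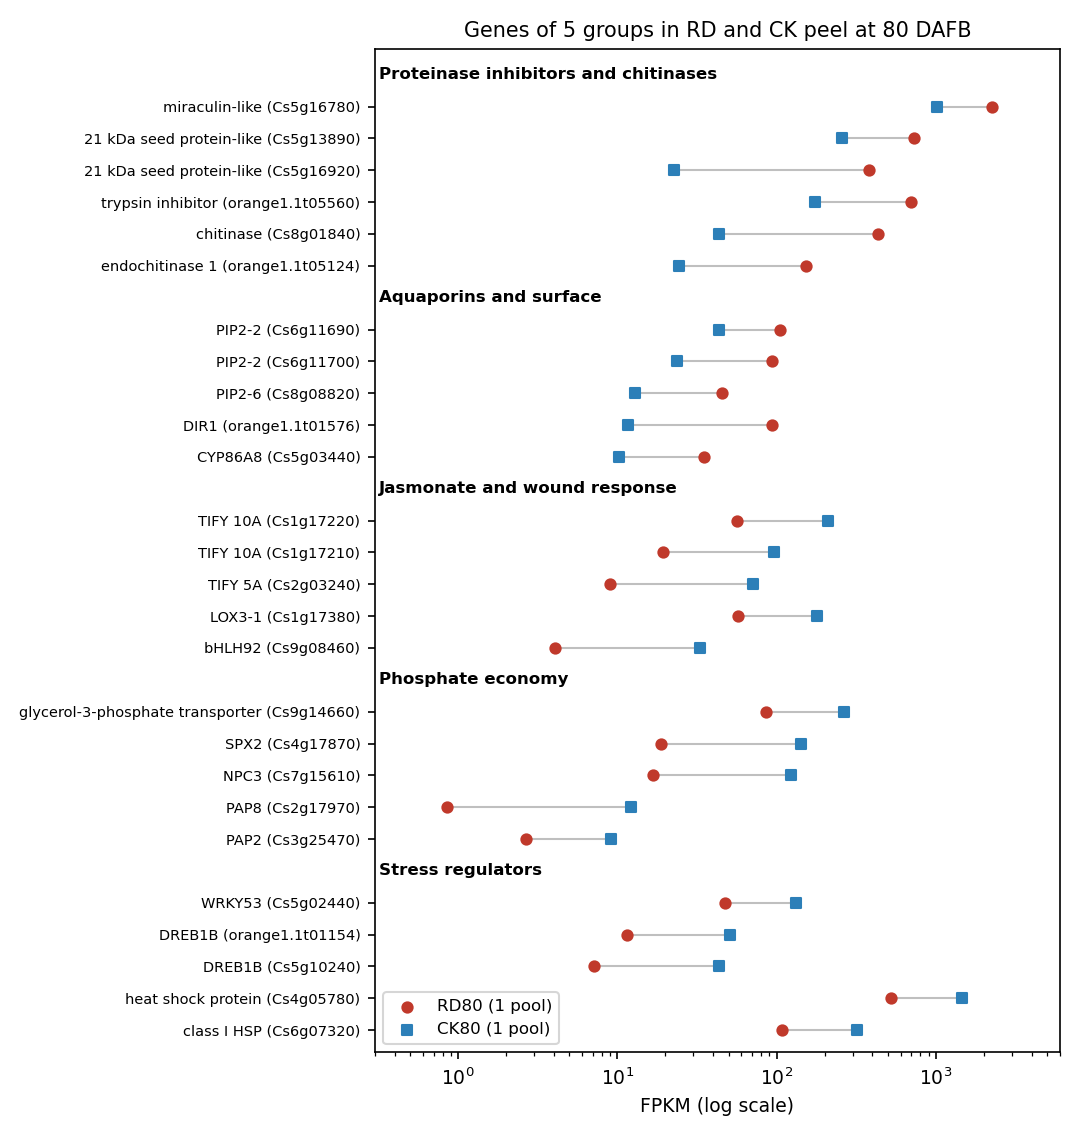
FPKM (log scale) in RD80 (red circles) and CK80 (blue squares), 1 pool each, of 26 genes from 5 groups. The genes drawn were picked from those at least 2-fold apart. Those for proteinase inhibitors, chitinases, aquaporins and the surface are higher in RD80, for example 435 in RD80 and 43.3 in CK80 for the chitinase Cs8g01840. Those for jasmonate, phosphate and stress regulation are lower, for example 9.04 in RD80 and 71.1 in CK80 for TIFY 5A. Genes not drawn can go the other way. The chitinase list has 4 higher and 3 lower members, and DREB3 is higher, with 12.7 in RD80 and 4.56 in CK80.

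Aquaporins, the channels through which water crosses plant membranes, had the highest median of the 53 lists matched by function. Of 12 members, 5 (41.7%) were at least 2-fold higher in RD80 and none was lower, and the median log2 ratio was 0.73, beside 0.10 over all genes. PIP2 aquaporins sit in the plasma membrane. The PIP2-2 homolog Cs6g11700 had 93.2 in RD80 and 23.5 in CK80, Cs6g11690 had 105 in RD80 and 43.6 in CK80, and PIP2-6 (Cs8g08820) had 45.3 in RD80 and 12.8 in CK80. The neighbouring PIP2-2 genes are similar in sequence and may share reads. NIP5-1 (Cs3g20790), a boric acid channel in Arabidopsis, had 22.0 in RD80 and 6.31 in CK80. The tonoplast aquaporin TIP4-1 (Cs4g19580) was just above the limit with 13.3 in RD80 and 6.65 in CK80 and fell under it after centring. The most abundant aquaporin, PIP1-2 (Cs5g03460), was less than 2-fold apart, at 741 in RD80 and 508 in CK80. The summed FPKM of the list was 1086 in RD80 and 668 in CK80.

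Genes of the fruit surface were mostly on the higher side. Of 44 cuticle and wax genes, 9 (20.5%) were higher and 3 (6.82%) lower, and 35 of the 44 had a ratio above equality, with a median of 0.39. CYP86A8 (Cs5g03440), a fatty acid omega-hydroxylase that makes cutin monomers, had 34.8 in RD80 and 10.3 in CK80. ABCG11 (Cs5g17290), an exporter of cutin and wax precursors, had 18.1 in RD80 and 7.05 in CK80, and the long-chain alcohol oxidase FAO4A (Cs6g20030) had 10.8 in RD80 and 2.99 in CK80. The 3 lower members included a CYP94A1 homolog (Cs3g07440), of a family that hydroxylates fatty acids, with 2.89 in RD80 and 29.9 in CK80. Another CYP94A1 homolog, Cs6g16700, went the other way, with 6.42 in RD80 and 0.34 in CK80. GDSL esterases, the family of the cutin synthases, had 5 of 25 (20%) higher and none lower. Of these, Cs5g06720 had 24.7 in RD80 and 9.05 in CK80. The transcription factors MYB39 (orange1.1t01787, 8.10 in RD80 and 3.84 in CK80) and the MYB306 homolog Cs6g21210 (7.09 in RD80 and 2.21 in CK80) belong to clades that control suberin and cuticle genes in other plants. Among all 40 MYB factors, 11 (27.5%) were higher and 3 (7.5%) lower, but only 1 of the 11 exceeded an FPKM of 10, and Myb4 homologs stood on both sides. Cs4g06090 had 6.55 in RD80 and 1.24 in CK80, and Cs9g10480 had 0.86 in RD80 and 6.13 in CK80.

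Wall genes were divided by family. Of 20 expansins and xyloglucan enzymes, only some of which loosen the growing wall, 1 (5.0%) was higher and 6 (30.0%) were lower in RD80. Expansin-like A1 (Cs8g01880) had 17.5 in RD80 and 82.9 in CK80, and the xyloglucan endotransglucosylase/hydrolase 23 (Cs4g03200) had 16.1 in RD80 and 44.9 in CK80. The xyloglucan glycosyltransferase 12 (Cs3g16380) had 41.3 in RD80 and 103 in CK80. BRU1 (orange1.1t02385), a brassinosteroid-regulated xyloglucan endotransglucosylase in soybean, was counted with the brassinosteroid genes and had 152 in RD80 and 543 in CK80. In contrast, the most abundant expansin, expansin-A4 (Cs6g06530), was at 539 in RD80 and 516 in CK80, and the summed FPKM of the list was nearly equal, at 1653 in RD80 and 1646 in CK80. The 6 lower members had between 2.69 and 103 FPKM in CK80, and 3 of them were under 10. Cellulose synthase-like D3 (Cs3g09000) had 15.7 in RD80 and 60.1 in CK80, and an extensin-like protein (Cs1g20150) had 111 in RD80 and 262 in CK80, whereas the extensin EPR1 (Cs6g19760) had 103 in RD80 and 38.6 in CK80. Among 47 pectin enzymes, 2 (4.26%) were higher and 2 lower, a share close to that of all genes.

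**Figure D4:**
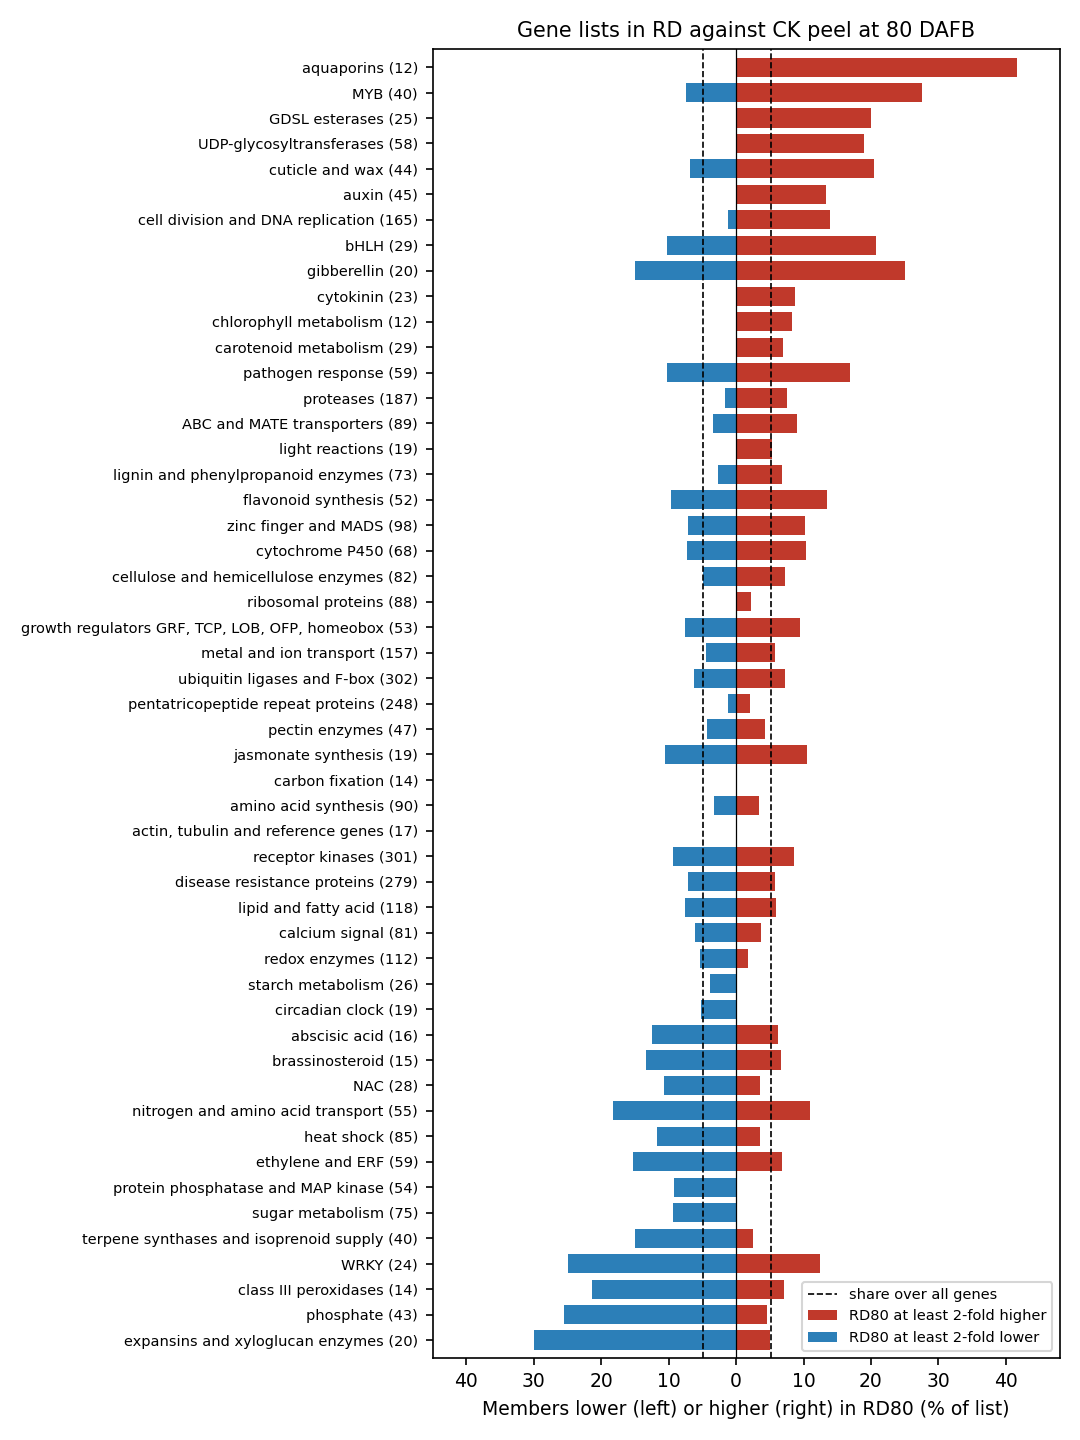
Share of each list at least 2-fold higher (red, right) or lower (blue, left) in RD80, for lists of 12 or more members. The list of seed and juice sac genes is not drawn. Lists are ordered by the share higher minus the share lower, with the number of members in parentheses. Dashed lines mark 5.2% and 4.86% over all genes. Aquaporins reach 41.7% higher and expansins and xyloglucan enzymes 30.0% lower.

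Cell division and DNA replication genes leaned towards RD80 at low levels. Of 165 members, 23 (13.9%) were higher and 2 (1.21%) lower, and 135 had a ratio above equality, with a median of 0.32. Over all genes, 5.2% were higher and 4.86% lower. The 23 had between 1.11 and 11.6 FPKM in the higher library. Weak genes in general had larger shares, with 15.5% higher and 9.69% lower at a mean FPKM of 1 to 2. At a mean of 2 to 5 these were 8.69% and 6.4%. The cell cycle entry cyclin D1-1 (Cs7g08180) had 11.6 in RD80 and 4.21 in CK80 and was the only one of the 23 above 10. DNA topoisomerase 2 (Cs7g01560) had 4.16 in RD80 and 1.73 in CK80, and the replication licensing factor MCM2 (Cs5g21760) had 4.35 in RD80 and 2.11 in CK80. The 2 lower members were a dihydrofolate reductase-thymidylate synthase (Cs8g07400, 3.36 in RD80 and 10.4 in CK80), which supplies thymidylate, and cyclin D2-2 (Cs1g21610, 0.84 in RD80 and 1.72 in CK80). After centring, the counts were 16 higher and 3 lower.

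Gibberellin genes moved both ways. Of 20 members, 5 (25%) were higher and 3 (15.0%) lower. GAST1 homologs are targets induced by gibberellin in tomato. Of these, orange1.1t00730 had 76.2 in RD80 and 19.0 in CK80, and Cs2g31040 had 23.7 in RD80 and 9.06 in CK80. The DELLA homolog GAI (Cs6g17530), a repressor of gibberellin response, was also higher, with 61.0 in RD80 and 22.6 in CK80. By contrast, gibberellin 2-beta-dioxygenase 2 (Cs9g01770), which inactivates the hormone, had 10.5 in RD80 and 24.6 in CK80, and ent-copalyl diphosphate synthase (Cs5g15530), an early enzyme of its synthesis, had 2.34 in RD80 and 5.16 in CK80. Not all relatives of GAST1 were higher. Gibberellin-regulated protein 1 (Cs3g26100), the most abundant gene of the list, had 102 in RD80 and 192 in CK80, and snakin-2 (Cs3g26090) had 2.98 in RD80 and 6.86 in CK80. Genes that the study singles out as receptors and signal components were less than 2-fold higher, among them the receptor-like carboxylesterases Cs8g05610 (10.2 in RD80 and 5.41 in CK80) and Cs5g34010 (16.3 in RD80 and 9.08 in CK80). Other genes from that selection were lower. Among them were the 2 genes that the study names as DELLA genes. Cs4g12130 had 59.8 in RD80 and 192 in CK80, and Cs2g01990, described as scarecrow-like protein 13, had 116 in RD80 and 226 in CK80, under 2-fold. The gene bHLH130 (Cs7g02010) was also lower, with 15.2 in RD80 and 32.6 in CK80, and bHLH122 (orange1.1t03173) was higher, with 10.6 in RD80 and 4.87 in CK80. These genes were selected by the study from the pools at 30 DAFB of the same series.

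Of 45 auxin genes, 6 (13.3%) were higher and none was lower, and only 1 of the 6 reached an FPKM of 10. After centring, 4 were higher and 1 lower. The efflux carrier PIN3 (Cs2g16620) had 17.1 in RD80 and 8.18 in CK80 and fell under 2-fold after centring. YUCCA2 (Cs4g15810), an enzyme of auxin synthesis, was near the limit, with 1.78 in RD80 and 0.37 in CK80. In the abscisic acid list, a pair of 8'-hydroxylases, which degrade the hormone, were opposed. Homolog 4 (Cs8g05940) had 50.6 in RD80 and 22.8 in CK80, and homolog 1 (Cs6g19380) had 6.87 in RD80 and 32.4 in CK80. Histidine kinase 1 (Cs1g25680), an osmosensor in Arabidopsis that the cytokinin list holds by its name, had 77.7 in RD80 and 26.6 in CK80.

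Jasmonate repressors named as such were lower in RD80. TIFY (JAZ) proteins repress jasmonate response, and their genes are themselves induced by it. The 3 members whose description holds the name TIFY were all at least 2-fold lower, with a median log2 ratio of -2.30. TIFY 10A was represented by the neighbours Cs1g17220 (56.6 in RD80 and 210.2 in CK80) and Cs1g17210 (19.5 in RD80 and 95.9 in CK80), which may share reads. TIFY 5A (Cs2g03240) had 9.04 in RD80 and 71.1 in CK80. Of 19 jasmonate synthesis genes, 2 were higher and 2 lower. After centring, none was higher and 2 were lower. Lipoxygenase 3-1 (Cs1g17380), which oxidises linolenic acid in the entry step, had 57.2 in RD80 and 179 in CK80, and a chloroplast phospholipase A1 (Cs5g08030) had 13.8 in RD80 and 33.7 in CK80. A pair of 12-oxophytodienoate reductase 11 homologs were higher, as orange1.1t03727 with 24.6 in RD80 and 11.7 in CK80. The transcription factor bHLH92 (Cs9g08460), a stress-induced gene in Arabidopsis, had 4.07 in RD80 and 33.0 in CK80.

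Other regulators of early stress response were lower as well. Of 24 WRKY factors, 3 (12.5%) were higher and 6 (25%) lower, and the 5 lower ones at 10 FPKM or more included the WRKY53 pair Cs5g02440 (47.6 in RD80 and 132 in CK80) and Cs5g02450 (44.4 in RD80 and 119.8 in CK80). The 3 higher WRKY genes were all under 10. The summed FPKM of WRKY genes was 483 in RD80 and 817 in CK80. Their median log2 ratio was 0.05, with 12 members above equality and 12 below. Among 59 ethylene and ERF genes, 4 (6.78%) were higher and 9 (15.3%) lower, with a median of -0.002. DREB1B, a cold-induced activator, was represented by Cs5g10240 (7.16 in RD80 and 43.2 in CK80) and orange1.1t01154 (11.4 in RD80 and 50.9 in CK80), while DREB3 (Cs4g19480) had 12.7 in RD80 and 4.56 in CK80. ERF109 (Cs8g05910), a redox-responsive factor, had 28.4 in RD80 and 86.4 in CK80. Mitogen-activated protein kinase 1 (Cs8g17360) had 100.2 in RD80 and 261 in CK80, the kinase kinase kinase YODA (Cs1g22540) 9.20 in RD80 and 48.1 in CK80, and the calcium-binding protein KIC (orange1.1t00531) 43.8 in RD80 and 135 in CK80. None of 54 protein phosphatase 2C and MAP kinase genes was higher and 5 (9.26%) were lower, with a median of 0.01. The calcium signal list, which holds KIC, had 3 (3.7%) higher and 5 (6.17%) lower of 81. The NADPH oxidase RBOHA (Cs5g02940), a source of superoxide, had 7.89 in RD80 and 21.03 in CK80.

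Heat shock genes were lower in part. Of 85 members, 3 (3.53%) were higher and 10 (11.8%) lower, but the median was 0.08, and -0.01 after centring. The most abundant, a heat shock protein without a class in its name (Cs4g05780), had 524 in RD80 and 1469 in CK80, and a class I small heat shock protein (Cs6g07320) had 109 in RD80 and 319 in CK80. These genes react within minutes to heat and handling, and the time of sampling was not used here. Clock genes, which follow the time of day, gave 0 higher and 1 lower of 19, and LHY (orange1.1t00580), a transcript that peaks at dawn in Arabidopsis, had 384 in RD80 and 338 in CK80. Whether handling or hour of sampling had a part in the stress, jasmonate and DREB values was not tested.

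Phosphate-related genes were lower in RD80 in part. Of 43 members, 2 (4.65%) were higher and 11 (25.6%) lower, beside 5.2% and 4.86% of all genes. The median was -0.19, with 16 members above equality and 27 below. Only 4 of the 11 reached an FPKM of 10. SPX2 (Cs4g17870), a phosphate sensor that restrains the starvation response in Arabidopsis and is induced by low phosphate, had 18.7 in RD80 and 142 in CK80. The glycerol-3-phosphate transporter 1 (Cs9g14660) had 85.8 in RD80 and 265 in CK80. Purple acid phosphatases release phosphate from organic compounds, and PAP8 (Cs2g17970) had 0.85 in RD80 and 12.2 in CK80. Transporters of inorganic phosphate were lower by less than 2-fold, as PHT1-7 (Cs9g10540) with 69.5 in RD80 and 129.6 in CK80 and PHT1-4 (Cs9g10530) with 84.8 in RD80 and 128 in CK80. Not all members followed. SPX4 (Cs6g21550), another protein of the SPX family, had 5.85 in RD80 and 3.61 in CK80, and the acid phosphatase 1 homolog Cs1g15940 had 48.9 in RD80 and 22.6 in CK80. A differently drawn list of 39 genes of phosphate economy was drawn up after the values were seen. It shares members with the first list, SPX2 and the glycerol-3-phosphate transporter 1 among them, and is no separate support. It summed to 838 in RD80 and 1490 in CK80, with 1 higher and 11 lower. That list holds non-specific phospholipase C3 (Cs7g15610), of a family that can free phosphate from membrane lipids, with 16.7 in RD80 and 123 in CK80. A hypothetical protein next to PAP8 by gene number, Cs2g17980, had 56.9 in RD80 and 331 in CK80.

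Nitrogen and amino acid transport showed differences in both directions, with 6 (10.9%) higher and 10 (18.2%) lower of 55. The vacuolar amino acid transporter 1 (Cs6g21320) had 4.70 in RD80 and 41.7 in CK80, and amino acid permease 3 (Cs3g20070) had 22.4 in RD80 and 69.6 in CK80. Nitrate reductase (Cs3g19060), the entry enzyme of nitrate assimilation, had 5.11 in RD80 and 27.2 in CK80. Higher were proline transporter 1 (Cs5g06430), with 13.0 in RD80 and 1.64 in CK80, and the nitrate transporter 1.1 homolog Cs5g09050, with 27.6 in RD80 and 11.4 in CK80. Of 75 sugar metabolism genes, none was higher and 7 (9.33%) were lower. The sugar transporter SWEET2 (Cs5g13290) had 4.03 in RD80 and 11.6 in CK80, and a galactinol-sucrose galactosyltransferase (Cs2g27610), which makes raffinose, had 65.6 in RD80 and 132 in CK80. The most abundant gene of the list, an acid invertase (Cs5g09220) that splits sucrose, was on the other side at 558 in RD80 and 308 in CK80, under 2-fold.

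Terpene synthases of the peel oil were lower in a few members. In the list of 40 terpene and isoprenoid genes, 1 (2.5%) was higher and 6 (15.0%) lower. The beta-farnesene synthases Cs4g12350 (16.2 in RD80 and 105 in CK80) and Cs4g12400 (15.8 in RD80 and 73.0 in CK80), which make a sesquiterpene, were lowest relative to CK80. The germacrene D synthase orange1.1t04360 was the 1 higher member, with 135 in RD80 and 53.5 in CK80. Limonene synthase 1 (Cs3g04360), the source of the main monoterpene of citrus peel, was less than 2-fold apart at 619 in RD80 and 728 in CK80. Flavonoid genes were divided, with 7 (13.5%) higher and 5 (9.62%) lower of 52, and the main chalcone synthase (Cs2g14720), the entry enzyme, had 924 in RD80 and 751 in CK80. Of 58 UDP-glycosyltransferases, which attach sugars to such compounds and to hormones, 11 (19.0%) were higher and none was lower. UGT83A1 (Cs6g22150), for example, had 17.6 in RD80 and 4.35 in CK80. Only 4 of the 11 reached an FPKM of 10, and after centring 7 were higher and 1 lower. The shares over all genes were 5.2% higher and 4.86% lower.

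Photosynthesis genes differed little. Of 19 genes of the light reactions, 17 had a ratio below equality, but none was 2-fold lower, and the median was -0.17. The 1 (5.26%) counted as higher, beside 5.2% of all genes, was chlorophyll a-b binding protein 7 (Cs1g14270). It had 6.97 in RD80 and was listed at 0 in CK80. Chlorophyll a-b binding protein 3C (Cs2g03780), the most abundant transcript of both pools, had 10228 in RD80 and 10984 in CK80. The Rubisco small chain (Cs6g18680) had 3842 in RD80 and 4419 in CK80. None of 14 carbon fixation genes was 2-fold apart, and neither was any of 17 actin, tubulin and other reference genes. Ribosomal proteins had 2 (2.27%) higher and none lower of 88.

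Further large differences were found in genes of various roles. A putative DNA binding protein (Cs3g03390) had 319 in RD80 and 43.4 in CK80. The dehydration-responsive protein RD22 (Cs4g19980), induced by drought in Arabidopsis, had 194 in RD80 and 59.3 in CK80, and the squamosa promoter-binding-like factor SPL9 (orange1.1t02265), a regulator of the juvenile to adult transition, had 36.7 in RD80 and 10.2 in CK80. On the lower side was flowering locus T (Cs6g05140), a mobile inducer of flowering, with 13.0 in RD80 and 57.1 in CK80. The mitochondrial alternative NAD(P)H dehydrogenase A1 (Cs2g06650) had 38.2 in RD80 and 216 in CK80. An L-ascorbate oxidase homolog (Cs8g01960) had 4.87 in RD80 and 38.6 in CK80, and tryptophan synthase beta chain 2 (Cs2g07700) had 7.0 in RD80 and 46.7 in CK80. Among hypothetical proteins, Cs6g08360 had 120.0 in RD80 and 945 in CK80, and Cs2g13910 had 105 in RD80 and 683 in CK80.

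To ask whether the genes were apart at other stages too, they were followed in pools that share no library with RD80 and CK80, although trees may have been the same. Of the 741 higher genes expressed at 30 DAFB, 359 (48.4%) were at least 2-fold higher in RD30 than in CK30 and 41 (5.53%) lower, beside 25.6% higher and 6.34% lower over all genes. Of the 693 lower genes, 295 (42.6%) were lower and 146 (21.1%) higher. At 170 DAFB, 182 (30.0%) of 607 higher genes were again higher in RD170 than in CK170 and 114 (18.8%) lower, beside 8.14% higher and 10.1% lower over all genes. Of the 694 lower genes, 263 (37.9%) were again lower and 70 (10.1%) higher. The same direction at all 3 stages was shared by 67 higher and 100 lower genes, and 345 higher and 256 lower genes were counted as apart at 80 DAFB alone. A gene under an FPKM of 1 in both pools of another stage was counted as not apart there, whatever its ratio.

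By family, the course differed. The 3 TIFY genes, LOX3-1 and bHLH92 were lower in RD peel in every pair of pools, though not always by 2-fold. TIFY 5A had 23.1 in RD30 and 98.9 in CK30, and 13.5 in RD170 and 51.6 in CK170. LOX3-1 (Cs1g17380) had 56.6 in RD30 and 579 in CK30, and 26.5 in RD170 and 66.5 in CK170. Of 7 chitinases expressed at 30 DAFB, 2 were higher and 3 lower in RD30. Chitinase 1 (Cs8g17580) was higher at both stages, with 3.36 in RD30 and 1.26 in CK30 and 2.25 in RD80 and 0.87 in CK80. The chitinase Cs8g01840 had 2142 in RD30 and 5036 in CK30, with 6.64 in RD170 and 0.67 in CK170, so that its level was lower at each later stage in both kinds of peel. Miraculin Cs5g16780 had 5748 in RD30 and 6159 in CK30, and 252 in RD170 and 13.9 in CK170. None of the 11 serine inhibitors was 2-fold apart at 30 DAFB, and at 170 DAFB 7 of 10 were higher and 3 lower. Of 12 aquaporins, 1 (8.33%) was higher in RD30, beside a background of 25.6%. Of the 7 measured at 170 DAFB, 5 (71.4%) were higher in RD170, beside 8.14%, and none was lower at either stage. SPX2 had 15.4 in RD30 and 2.86 in CK30 and 172 in RD170 and 159 in CK170, so it was lower in RD peel at 80 DAFB alone. The phosphate list had 11 (28.9%) higher and 1 (2.63%) lower of 38 at 30 DAFB, beside 25.6% and 6.34% of all genes. Flowering locus T had 0.95 in RD30 and 0.06 in CK30, with 158 in RD170 and 405 in CK170.

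**Figure D5:**
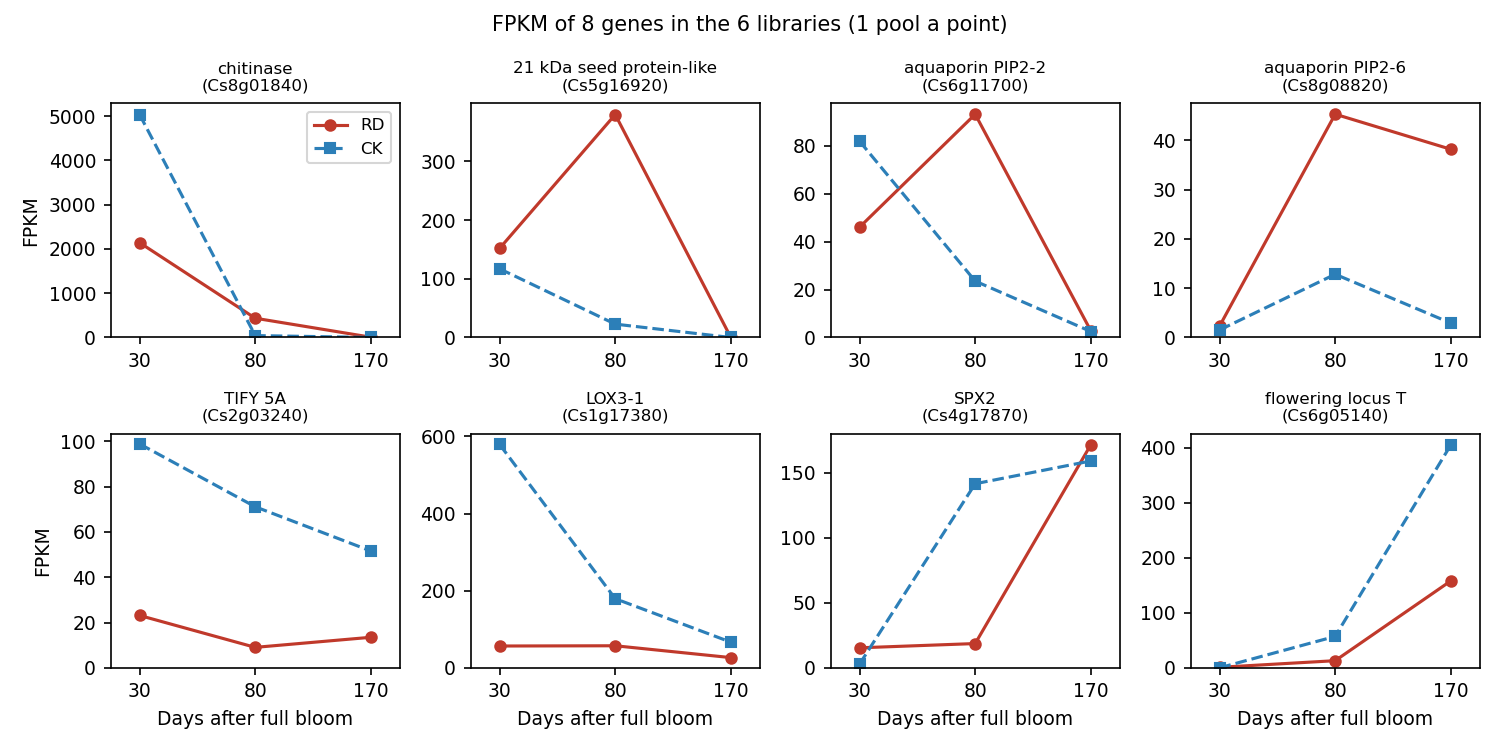
FPKM of 8 genes at 30, 80 and 170 DAFB in RD (red circles) and CK peel (blue squares), 1 pool a point. TIFY 5A and LOX3-1 are lower in RD at all 3 stages, while chitinase Cs8g01840 is lower in RD30 (2142, and 5036 in CK30) and higher in RD80 (435, and 43.3 in CK80), and SPX2 is lower in RD80 only (18.7, and 142 in CK80).

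The genes apart at 80 DAFB also had a strong course in control peel. CK30 and CK170 are not part of the comparison and give the young and the mature state. Of the 714 higher genes expressed there, 310 (43.4%) were at least 2-fold higher in CK30 than in CK170 and 228 (31.9%) the other way, beside 18.2% and 32.8% over all genes. For the 725 lower genes, the counts were 317 (43.7%) higher in CK30 and 224 (30.9%) higher in CK170. Genes of young peel were therefore frequent on both sides of the comparison at 80 DAFB, with shares that were nearly equal.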

How the data were processed

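The authors removed reads with adapters, poly-N or low quality, aligned the rest to the Citrus sinensis genome with Bowtie and BWA, and deposited 1 FPKM per gene and library, computed with RSEM, which divides reads among similar copies. Versions, genome build and strand setting were not given in the sources used here. Columns with the authors' gene descriptions served for names only. Ratios, counts, and medians were computed from the deposited FPKM with Python 3.11.15, numpy 2.4.6, and pandas 2.3.3, and plots were drawn with matplotlib 3.10.9. A gene counted as higher or lower at a ratio of at least 2 with an FPKM of at least 1 in the higher library, and no pseudocount was added. The rule was tested on simulated data. The FDR test on reads that the study adds was left out, since FPKM are not counts. No test between pools was run. Reads per gene were not used here, so no counting interval was given.

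Lists were matched by gene description. The members and lists were chosen with earlier results of these data known, and some lists after the values were seen. The latter were serine and cysteine proteinase inhibitors, chitinases, salicylic acid-binding proteins, germin-like proteins, basic 7S globulins, DREB factors and phosphate economy. The marker lists other than that of seed and juice sac genes were also drawn up then. Named genes were the 25 largest rises and falls in ratio at FPKM 10 or more with a named match, up to 3 higher and 3 lower members of each list by level with its most abundant member, the 10 largest rises and falls in FPKM, the 5 highest genes listed at 0 in 1 library, and genes the study singles out. Adjacent genes, members of lists drawn up late, marker genes, and a few list members were named after their values were seen. Alternatives were median centring, upper quartile scaling, other minimum levels, and pseudocounts.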

Additional observations from a re-analysis of the deposited data

Results flagged for a closer look

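The genes searched were those named in the results above and those with the largest differences at 80 DAFB by ratio or FPKM. For 29 of them, the pools of another stage differed at least 2-fold in the opposite direction. Each stage has 1 pool a side, so the difference between stages was not tested. Higher in RD80 than in CK80, but lower in RD30 than in CK30, were the chitinase Cs8g01840 (RD30 over CK30 log2 ratio -1.23), endochitinase 1 (orange1.1t05124, -1.66), the repeat protein DRT100 (orange1.1t03175, -1.37; 41.7 in RD80 and 12.4 in CK80), and the hypothetical proteins Cs5g25690 (-1.54) and Cs8g01850 (-1.13). Lower in RD80, but higher in RD30, were nitrate reductase (Cs3g19060, 1.14), SPX2 (Cs4g17870, 2.43), the vacuolar cation/proton exchanger 3 (Cs8g20150, 2.75; 3.08 in RD80 and 13.1 in CK80), a basic 7S globulin (Cs9g06040, 1.39; 2.49 in RD80 and 13.1 in CK80), the endochitinase PR4 (Cs5g21900, 1.04), bHLH130 (Cs7g02010, 1.08), the hypothetical protein Cs2g17980 (2.14), and heat shock proteins. Of these, Cs4g05780 had a log2 ratio of 3.30, the class I protein Cs6g07320 one of 3.90, and the 22.0 kDa class IV protein Cs5g18500 one of 7.35, with 222 in RD30 and 1.36 in CK30. Lower in RD80 but higher at both other stages were the hypothetical protein Cs6g08360, with 1.91 at 30 DAFB and 4.78 at 170 DAFB, and ent-copalyl diphosphate synthase (Cs5g15530), with 1.29 at 30 DAFB and 3.12 at 170 DAFB.

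At 170 DAFB, the beta-farnesene synthases Cs4g12350 (RD170 over CK170 log2 ratio 3.66) and Cs4g12400 (4.45) were opposite to 80 DAFB, but at low levels, with 2.15 in RD170 and 0.17 in CK170 for Cs4g12350. BRU1 (orange1.1t02385, 1.52) and cellulose synthase-like D3 (Cs3g09000, 1.095) were likewise lower in RD80 and higher in RD170. Higher in RD80 but lower in RD170 were the asparaginase Cs3g23110 (-1.63; 53.6 in RD80 and 10.9 in CK80), the trypsin inhibitor Cs9g15430 (-2.24; 10.9 in RD80 and 1.74 in CK80), the 21 kDa homolog Cs5g16850 (-2.25), ABCG11 (Cs5g17290, -1.63), and the extensin EPR1 (Cs6g19760, -1.03). The MYB factors Cs6g21210 (-1.40), Cs4g06090 (-1.42), and orange1.1t01787 (-1.03) had the same course.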

How the results depend on the processing

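The counts of genes at least 2-fold higher and lower in RD80, 905 and 845, were 744 and 980 after median centring, 871 and 876 after upper quartile scaling, and 825 and 799 with a pseudocount of 0.1. They moved more with the treatment of weak genes, to 352 and 511 at a minimum FPKM of 5, 2302 and 2016 without a minimum, and 424 and 551 with a pseudocount of 1. Of the 53 lists matched by description, the median log2 ratio changed sign at a minimum FPKM of 5 for expansins and xyloglucan enzymes (0.0261, against -0.13), pectin enzymes (-0.0069, against 0.14), and class III peroxidases (0.12, against -0.11), and with a pseudocount of 1 for NAC factors (0.0021, against -0.11). These medians are too near 0 for a direction. On centring, 12 of the 53 medians changed sign, all of them under 0.1 as given, those of WRKY, heat shock, flavonoid, and cytokinin genes among them. Fewer genes are counted under a higher minimum by construction. Of the named genes with a ratio, 380 stayed on their side of the 2-fold limit on centring, 22 no longer met it and 5 newly did, and 67 no longer met it with a pseudocount of 1. No paired analysis was possible because each condition had 1 library, and none could be left out.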
